A study of Mus musculus with 27 samples.

Results

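The genes described here are 9 components of the Hedgehog signalling pathway, Ptch1, Smo, Gli1, Gli2, Gli3, Hhip, Boc, Cdon and Gas1, out of 55487 genes counted in the embryonic mouse optic stalk (OS). They were chosen by name for their place in the pathway, from the receptor complex to the transcription factors. No measured value entered the rule of choice, but earlier results of these data were known. All 9 matched 1 row of the count table through their Ensembl identifier, and all 9 passed the count filter (over 10 counts in 3 or more of 27 libraries), as did 16330 genes in all. Dorsal, ventral and axon-rich pieces of the OS were cut by laser capture from 12 µm frozen sections of embryonic day 14 (E14) heads, from 4 control and 5 mutant embryos, which gives 6 groups of 4 or 5 libraries. Mutants carried Smarcc1 loxP/loxP alleles and the Dct-Cre transgene (Smarcc1-DCT-cKO), with the Z/EG reporter, so that Smarcc1 (Baf155), which holds together the SWI/SNF nucleosome remodeller, was deleted where Cre had been active. Controls were littermates that lacked Dct-Cre, and all lines were kept on a C57Bl6/J background. The study sets out how the OS and the astrocyte progenitors of the optic nerve head depend on Smarcc1.

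Dct-Cre is driven by the Dct promoter of the pigmented lineages. Per the study, it is active in the prospective retinal pigment epithelium and in the dorsal OS before it reaches the ventral OS. How long Cre had been active in the axon-rich piece is not given in the sources used here. Each library is bulk RNA of a cut piece, in which fewer cells of a type and less RNA per cell cannot be told apart. The labels give 2 batches, A (1 control and 3 mutant embryos) and B (3 control and 2 mutant embryos). Library totals were 10.9 to 34.0 M counts, and levels are given as counts per M counts of the library (CPM). Axon libraries listed fewer genes with any count than the others, on average 12143 ± 1797 (SD, n = 4) in controls and 10146 ± 796 (n = 5) in mutants, against 13576 to 14294 in the dorsal and ventral groups. Smarcc1 itself was counted in every library, at 75.9 to 289 CPM in dorsal controls against 2.26 to 107 in dorsal mutants, 75.7 to 198 against 14.7 to 64.4 in the ventral OS and 50.1 to 242 against 1.86 to 44.9 in the axon pieces, with an overlap only in the dorsal OS. The counts cover the whole gene, and reads from exons outside the deleted part would remain in them. Summed markers of OS and astrocyte progenitors (10 genes, among them Pax2, Sox2, Sox9 and Vim) were at 997 CPM or more in every library. Pax2, the defining gene of the OS, was at 0.826 to 39.2 CPM in dorsal controls but at 0.0917 to 5.78 CPM in dorsal mutants, and at 4.04 CPM or more in every ventral and axon library. The 9 neuron markers summed to 805 to 2139 CPM in the axon pieces and 10.9 to 1342 CPM elsewhere, ranges that overlapped. Of the neuron markers, Pou4f1 and Pou4f2 in axon controls and Pou4f2 and Tubb3 in axon mutants were at 3 counts or fewer in every library.

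Hedgehog ligands act over a distance. In their absence the receptor Patched (Ptch1) keeps the membrane protein Smoothened (Smo) inactive, and Gli3 and Gli2 are cut to repressors. Ligand bound to Patched, with the help of the coreceptors Boc, Cdon and Gas1, frees Smoothened at the primary cilium and turns the Gli proteins into activators. Ptch1, Hhip and Gli1 are themselves transcribed in response, so their RNA is widely read as a gauge of signalling, and Ptch1 and Hhip damp the signal by binding ligand. In the eye, Sonic hedgehog from the ventral midline favours OS over retinal and pigmented fates.

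Gli proteins bind the sequence GACCACCCA, and sites of this kind have been tied to the response of Ptch1. The promoters of 7 of the 9 genes (Ptch1, Smo, Gli2, Gli3, Hhip, Cdon and Gas1) were in the RefSeq table used here (GRCm38.p6), and Gli1 and Boc were not in it. For Cdon the start in it, just after chr9:35452075, lies inside the gene as placed by GENCODE M21 (chr9:35421128-35507652, plus strand). The stretch before the GENCODE start of Cdon was therefore outside the search. Both strands of the 1000 bases before and 50 after each start were searched for the 9 letters, and 1 of the 7 genes, Ptch1, held an exact match. Among 32851 such windows genome-wide, 280 (0.852%) held one. The match is shown because Ptch1 RNA is the most steadily counted readout of the pathway in these libraries. It is printed on the Ptch1 strand (minus strand of chromosome 13, GRCm38.p6, chr13:63566425-63566453) with the match in capitals, in the orientation opposite to the gene.
Ptch1 upstream site: gttgcctaccTGGGTGGTCtctctacttt
The match was centred 704 bases before the RefSeq start. In GENCODE M21, 2 of the 10 Ptch1 transcripts start further upstream and carry it in an intron, and no annotated exon covers it. A match is a description of the letters. Binding was not measured in these samples, and a window without a match may hold sites of other letters.

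Compared per kb of exon, Smo had the highest median level of the 9 genes, at 16.9 CPM per kb over the 27 libraries, followed by Gli3 (11.8 CPM per kb), Gas1 (11.5 CPM per kb) and Ptch1 (6.76 CPM per kb). Gli1 (3.82 CPM per kb) and Gli2 (2.01 CPM per kb) came next. The medians of Boc (0.344 CPM per kb), Hhip (0.146 CPM per kb) and Cdon (0.0424 CPM per kb) were the lowest. Per kb, the signal transducer, the main Gli gene of this set and a coreceptor thus lay above the receptor and the readout gene Gli1. Exon length here joins all annotated exons of a gene (14185 bases for Ptch1, 2961 for Gas1). In CPM not divided by it, the medians were 113 for Gli3, 95.9 for Ptch1, 94.8 for Smo, 34.1 for Gas1 and 19.1 for Gli1. Ptch1 and Smo had more than 3 counts in all 27 libraries, Gli1 and Gli3 in 26, Gas1 in 25, Gli2 in 23, Boc in 17, Hhip in 15 and Cdon in 14. The last 3 genes were at 0 in 9, 10 and 13 libraries and at 62.4 to 161 CPM at their highest, so that their levels moved between 0 and well counted within single groups. All 9 genes exceeded 3 counts together in 7 of the 27 libraries, and 8 libraries had fewer than 7 of them.

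**Figure D1:**
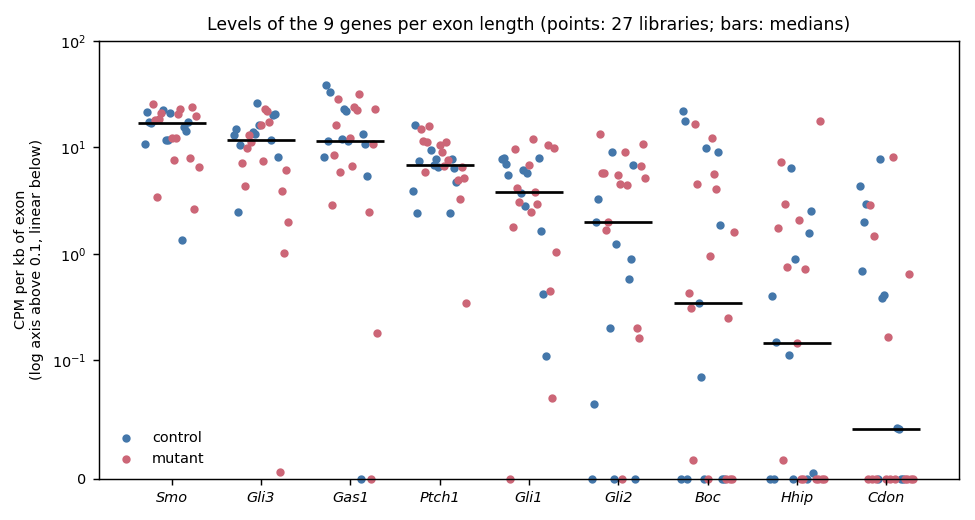
CPM per kb of exon (vertical axis, logarithmic above 0.1 and linear below) of the 9 genes, ordered by their median over 27 libraries (black bars). Each point is a library, blue for control and red for mutant. Smo, Gli3, Gas1 and Ptch1 have the highest medians, with Gas1 at 0 in 2 libraries. Boc, Hhip and Cdon are at 0 in 9, 10 and 13 libraries and reach values within the range of the other genes.

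Ptch1 (ENSMUSG00000021466.12, chr13:63508328-63573598, minus strand, mm10 and GENCODE M21) encodes the receptor. In dorsal controls it was counted at 55.3, 232, 34.6 and 106 CPM and in dorsal mutants at 212, 163, 83.5, 159.8 and 226 CPM. Means were 107 ± 88.5 (SD, n = 4) and 169 ± 56.1 (n = 5) CPM, and the groups overlapped, with 2 of the 4 controls within or above the mutant range. Ventral controls had 135, 95.9, 111 and 93.3 CPM and ventral mutants 149, 128, 95.0, 159 and 108 CPM. The genotypes overlapped in this narrow band, and the mutants at 149 and 159 CPM lay above every control. Axon controls had 34.5, 110.5, 90.8 and 67.2 CPM. Axon mutants had 70.0, 46.8, 93.4, 72.9 and 4.88 CPM, the last of them the lowest Ptch1 level of all libraries. By group mean the order was dorsal mutant, ventral mutant, ventral control, dorsal control, axon control and axon mutant, and no neighbours in this order were separated. Every ventral mutant library lay above every axon mutant library, with a fitted log2 difference of 0.96 ± 0.69 (SE, edgeR adjusted p = 0.561). The exact permutation test (two-sided) gave p = 0.00794 there, the smallest that its 252 splits allow, or 0.231 after adjustment over all genes tested. Libraries of the same number in a genotype were taken as pieces of the same embryo. Within an embryo, ventral exceeded axon for Ptch1 in 8 of 9 embryos, the exception being a control.

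Smo (ENSMUSG00000001761.7, chr6:29735503-29761365, plus strand) encodes the transducer that Ptch1 holds in check. Its group means spanned the smallest ratio of the 9 genes, 1.43-fold between the highest (dorsal mutant, 96.9 ± 46.3 CPM, n = 5) and the lowest (axon mutant, 67.9 ± 50.7 CPM, n = 5). Controls were at 93.0 ± 24.6 CPM dorsally, 94.2 ± 33.2 ventrally and 68.0 ± 40.9 in the axon pieces (n = 4 each), and ventral mutants at 85.1 ± 35.7 CPM (n = 5). All 6 groups overlapped. The lowest library was an axon control at 7.57 CPM and the highest a dorsal mutant at 142 CPM.

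The coreceptors differed in how steadily they were counted. Gas1 (ENSMUSG00000052957.8, chr13:60174405-60177365, minus strand), a membrane-anchored coreceptor, was at 23.9, 113, 34.1 and 97.2 CPM in dorsal controls and at 8.44, 24.8, 47.5, 84.3 and 17.3 CPM in dorsal mutants. Ventral controls had 35.7, 67.4, 65.5 and 33.6 CPM, and ventral mutants 36.5, 19.9, 70.8, 66.1 and 93.1 CPM. Axon controls had 0, 39.3, 31.5 and 16.1 CPM, and axon mutants 7.33, 0, 31.5, 67.6 and 0.532 CPM. By mean the axon pieces were the lowest, and the genotypes overlapped in each region. Compared within embryos, Gas1 was higher in the dorsal than in the axon piece of all 9 embryos, and higher in the ventral than in the axon piece of 8. The fitted group differences did not pass the test in controls (log2 1.39 ± 1.55 for dorsal over axon, adjusted p = 0.923) or in mutants (0.61 ± 1.69, adjusted p = 0.974). Of the exonic bases of Gas1, 19.9% are shared with the antisense transcript Gm48488, which was at 0.857 CPM at most in any library, and the strand setting of the counting is not given in the sources used here.

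Cdon (ENSMUSG00000038119.15, chr9:35421128-35507652, plus strand), a coreceptor of the immunoglobulin superfamily, was counted in every dorsal control, at 33.7, 5.27, 15.5 and 22.7 CPM. In axon controls it was at 0.334, 0.327, 0 and 0 CPM, so that the 2 groups did not overlap. The fitted log2 difference was 6.63 ± 2.78 (SE, n = 4 and 4, edgeR unadjusted p = 0.0334, adjusted p = 0.386), and the exact permutation test gave p = 0.0286, the smallest its 70 splits allow (0.648 adjusted over all genes tested). DESeq2, 1 of the other tools run, called this difference (adjusted p = 2.21e-05) as 1 of 541 genes (3.4% of those tested), and limma voom did not (adjusted p = 0.112). Elsewhere Cdon was patchy. Dorsal mutants had 0, 22.1, 0, 11.4 and 0 CPM, ventral controls 0, 59.3, 2.97 and 3.17 CPM, ventral mutants 0, 1.29, 0, 62.4 and 0 CPM, and axon mutants 0, 0, 4.96, 0 and 0 CPM. Within embryos, dorsal exceeded axon in 4 of 4 controls and in 2 of 5 mutants, and the genotype difference of that contrast was not called.

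Boc (ENSMUSG00000022687.12, chr16:44485049-44558897, minus strand), the relative of Cdon, was at 0, 98.0, 79.2 and 0 CPM in dorsal controls and at 1.93, 1.37, 0.0707, 74.0 and 20.01 CPM in dorsal mutants. Its range was 0 to 43.5 CPM in ventral controls, 0 to 54.3 in ventral mutants, 0 to 39.9 in axon controls and 0 to 7.14 in axon mutants. Libraries with and without Boc stood side by side in each group, and no groups were separated. Hhip (ENSMUSG00000064325.4, chr8:79965851-80058006, minus strand), the membrane decoy that binds ligand, behaved alike. It was at 0, 3.66, 0 and 1.35 CPM in dorsal controls and at 15.8, 65.3, 0.141, 26.4 and 6.85 CPM in dorsal mutants, where 4 of 5 mutants lay above every control (fitted log2 difference 4.77 ± 3.04, adjusted p = 0.953). In the axon pieces Hhip was at 0, 14.3, 22.9 and 0.0458 CPM in controls, and in mutants at 0 in 4 libraries and at 161 CPM in the other, the highest Hhip level of the series. DESeq2 called Hhip lower in these mutants (adjusted p = 0.0171), although their mean CPM was the higher one, as 1 of 1246 genes it called in that comparison (8.32% of those tested). With edgeR the fitted difference of Hhip there was also negative (log2 −8.22 ± 7.76, SE, adjusted p = 0.911) and was not called. Ventral controls had 1.02, 57.7, 0 and 8.20 CPM and ventral mutants 1.33, 19.1, 0, 0 and 6.49 CPM, which overlapped.

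The Gli genes encode the transcription factors at the end of the pathway. Gli1 (ENSMUSG00000025407.7, chr10:127329882-127341974, minus strand), an activator whose transcription depends on the signal, was at 38.6, 39.4, 34.9 and 27.7 CPM in dorsal controls (35.1 ± 5.32 CPM, SD, n = 4). Dorsal mutants had 0, 8.94, 48.6, 20.7 and 15.4 CPM, with 4 of 5 below every control and 1 above them all. The fitted log2 difference was −0.92 ± 1.59 (SE, edgeR adjusted p = 1), and the exact permutation test gave p = 0.127. Ventral controls were at 14.2 to 30.9 CPM and ventral mutants at 12.3 to 59.6 CPM. Axon controls had 39.3, 8.18, 2.09 and 0.55 CPM and axon mutants 52.5, 2.26, 0.34, 48.7 and 5.19 CPM, so that in both genotypes axon libraries ran from near 0 to the dorsal level. Of the exonic bases of Gli1, 6.55% are shared with Arhgap9 and Gm47200 on the other strand.

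Gli2 (ENSMUSG00000048402.14, chr1:118834132-119053619, minus strand), the main activator in many tissues, was at 0, 0.434, 13.8 and 22.7 CPM in dorsal controls and at 91.7, 39.2, 39.6, 11.5 and 13.8 CPM in dorsal mutants, which overlapped between 11.5 and 22.7 CPM. Its mean was higher in mutants than in controls in each region (39.1 ± 32.3 against 9.23 ± 11.0 CPM dorsally, 32.2 ± 22.2 against 17.9 ± 29.6 ventrally and 31.5 ± 31.1 against 14.2 ± 21.8 in the axon pieces, n = 5 against 4). None of these differences passed the test (smallest edgeR unadjusted p = 0.455, with log2 differences of 1.48 to 1.91 and SEs of 2.39 to 2.54), and the genotypes overlapped in all 3 regions.

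Gli3 (ENSMUSG00000021318.15, chr13:15463235-15730026, plus strand), the main repressor, was counted in every library. Dorsal controls had 124, 143, 23.4 and 100.1 CPM and dorsal mutants 68.2, 41.7, 94.7, 125 and 106 CPM. Ventral controls had 133, 128, 248 and 154 CPM and ventral mutants 155, 70.9, 217, 208 and 164 CPM. In these 2 regions the genotypes overlapped, with fitted log2 differences of −0.09 ± 0.58 dorsally and 0.08 ± 0.40 ventrally (SE). In the axon pieces the controls had 113, 194, 197 and 77.2 CPM and the mutants 0.0572, 37.6, 9.86, 58.2 and 18.9 CPM. Every axon mutant library lay below every axon control library, and below every ventral library of either genotype.

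**Figure D2:**
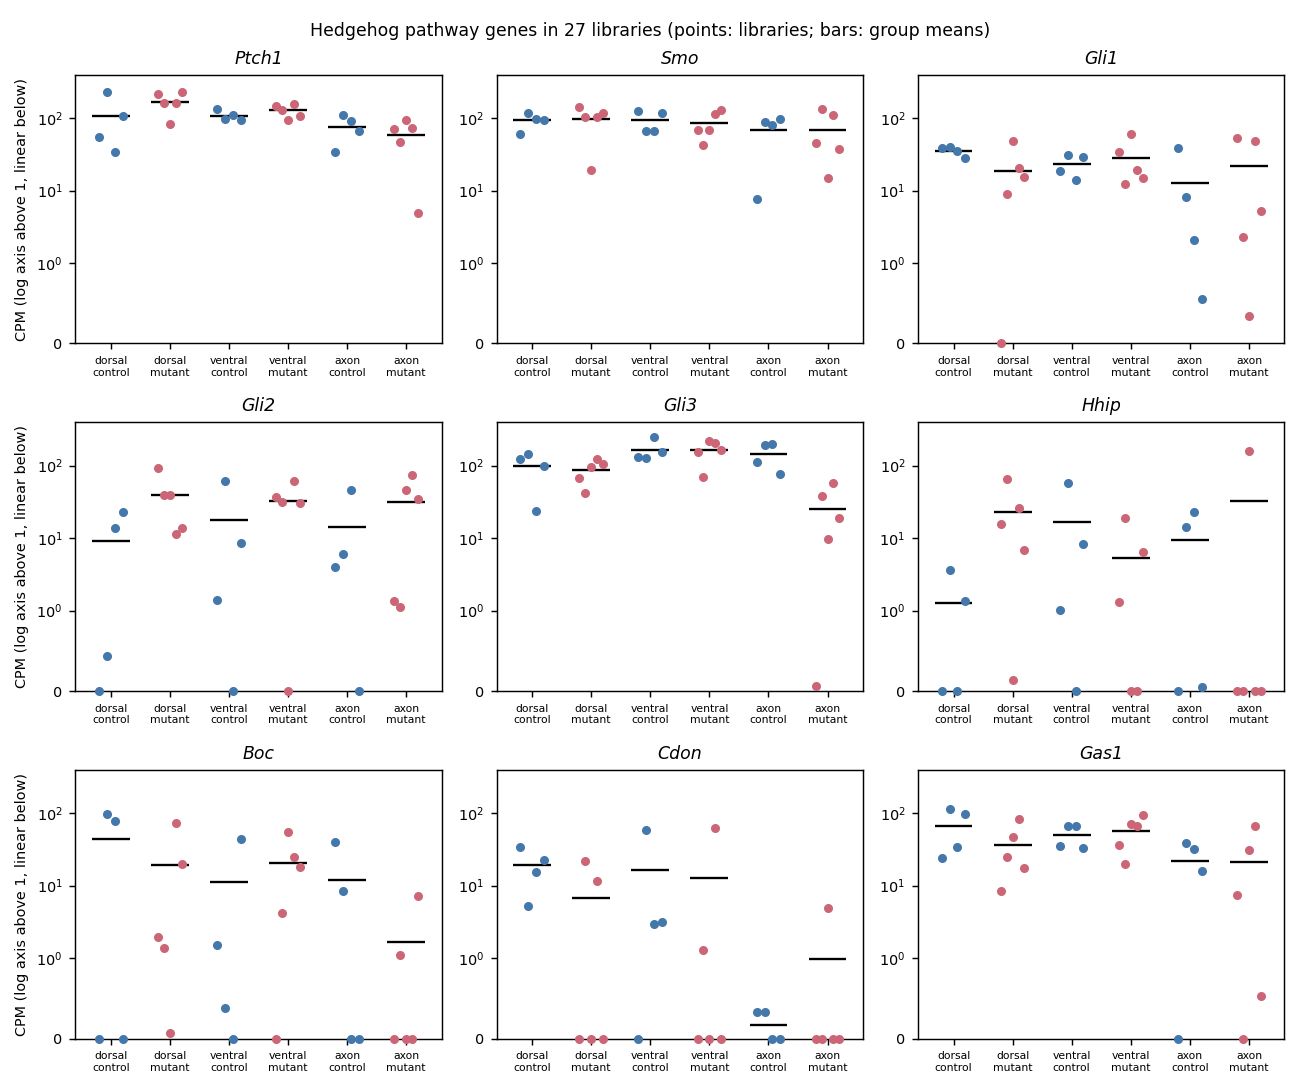
CPM of the 9 genes (vertical axes, logarithmic above 1 and linear below) in the 6 groups, with a point for each library (blue control, red mutant; 4 or 5 per group) and a bar at the group mean. The axon mutants lie lowest for Gli3 (0.0572 to 58.2 CPM), with no overlap with axon controls (77.2 to 197 CPM), while the genotypes overlap for the other genes.

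For Gli3 the axon means were 145 ± 59.8 CPM in controls (SD, n = 4) and 24.9 ± 23.2 CPM in mutants (n = 5), and the fitted log2 difference was −2.36 ± 1.21 (SE). It did not pass the test (edgeR unadjusted p = 0.0723, adjusted p = 0.880). The exact permutation test (two-sided) gave p = 0.0238 over 126 splits, of which the smallest possible is 0.00794, and 0.025 over the 40 splits that keep the batches, the smallest these allow. Adjusted over all genes tested these were 0.939 and 1. The direction was the same in batch A alone (log2 −2.87, adjusted p = 0.823) and in batch B alone (−2.04, adjusted p = 0.623). Without the mutant library at 0.0572 CPM, which held a single Gli3 read, the difference was −2.12 (adjusted p = 0.813). Of 14977 genes tested in the axon pieces, 192 (1.28%) had groups that did not overlap, and 1 of the 9 Hedgehog genes did. Across all genes the median fitted difference there was −0.29, and axon mutants also listed fewer genes than axon controls, as given above. The 12 mesenchyme markers summed to 390 to 2668 CPM in axon controls and 629 to 2348 CPM in axon mutants, and 9 of 12 were fitted lower in mutants. The 9 neuron markers summed to 1199 to 1597 and 805 to 2139 CPM. The 8 endothelial markers summed to 3.49 to 164 CPM in controls and 0.0584 to 391 CPM in mutants. The part of these quantities in the Gli3 values was not tested.

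In mutants, the Gli3 ranges of the ventral and axon pieces were separate, and those of the other pairs of regions overlapped. Ventral mutant libraries were all above the axon mutant libraries, with a fitted log2 difference of 2.53 ± 1.03 (SE, n = 5 and 5, edgeR unadjusted p = 0.0262, adjusted p = 0.214) and an exact permutation p of 0.00794, the smallest possible (0.231 adjusted over all genes tested). Ventral exceeded axon in 5 of 5 mutant embryos and in 3 of 4 controls. Dorsal mutants were lower than ventral mutants by a fitted log2 difference of −0.89 ± 0.38 (unadjusted p = 0.034, adjusted p = 0.381), with overlapping ranges and an exact permutation p of 0.0635. Within embryos Gli3 was lower dorsally than ventrally in 8 of 9, namely in 5 of 5 mutants and 3 of 4 controls. The test of the genotype effect between regions gave log2 2.62 ± 1.11 for ventral over axon (unadjusted p = 0.0254, adjusted p = 0.380) and 2.42 ± 1.11 for dorsal over axon (unadjusted p = 0.037, adjusted p = 0.379). These comparisons share libraries, and none was called.

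Counted over the genotype comparisons, 0 of the 9 genes were called by edgeR in any region, where a call needs an adjusted p below 0.05 together with a log2 change beyond 0.58 in either direction. In the dorsal OS 2 of 16145 genes were called (0.0124%) and in the ventral and axon pieces 0% of 16139 and 14977. An unadjusted p under 0.05 was reached by 0 Hedgehog genes in each region, against 5.35% of all genes dorsally, 3.19% ventrally and 3.55% in the axon pieces. Groups without overlap were found for 0 Hedgehog genes dorsally and ventrally, against 2.92% and 1.23% of all genes. The median fitted log2 difference of the 9 genes was 0.29 dorsally, 0.18 ventrally and −0.47 in the axon pieces, beside −0.04, −0.08 and −0.29 over all genes tested. Mutants were fitted higher for 5, 6 and 4 of the 9 genes in these regions. The standard errors, up to 7.76 on the log2 scale for Hhip in the axon pieces, leave room for changes of several fold in the patchily counted genes. In the dorsal comparison cell markers also differed between the genotypes, with 0 of them called. The 10 OS and astrocyte progenitor markers summed to 2711 to 3607 CPM in dorsal controls and 997 to 1843 CPM in dorsal mutants, without overlap, with 9 of 10 fitted lower. Retinal progenitor and proneural markers were fitted higher for 8 of 9 tested, and proliferation markers for 6 of 6. Mesenchyme markers summed to 1271 to 11464 CPM in dorsal controls and to 56.5 to 397 CPM in dorsal mutants, with 12 of 12 fitted lower. Pigment cell markers summed to 39.5 to 4927 CPM in controls and 3178 to 12772 CPM in mutants, with 9 of 9 fitted higher. No marker of the OS and astrocyte progenitor, mesenchyme and pigment lists was at 3 counts or fewer in every library of a dorsal group. The part of all these markers in the Hedgehog gene values was not tested.

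**Figure D3:**
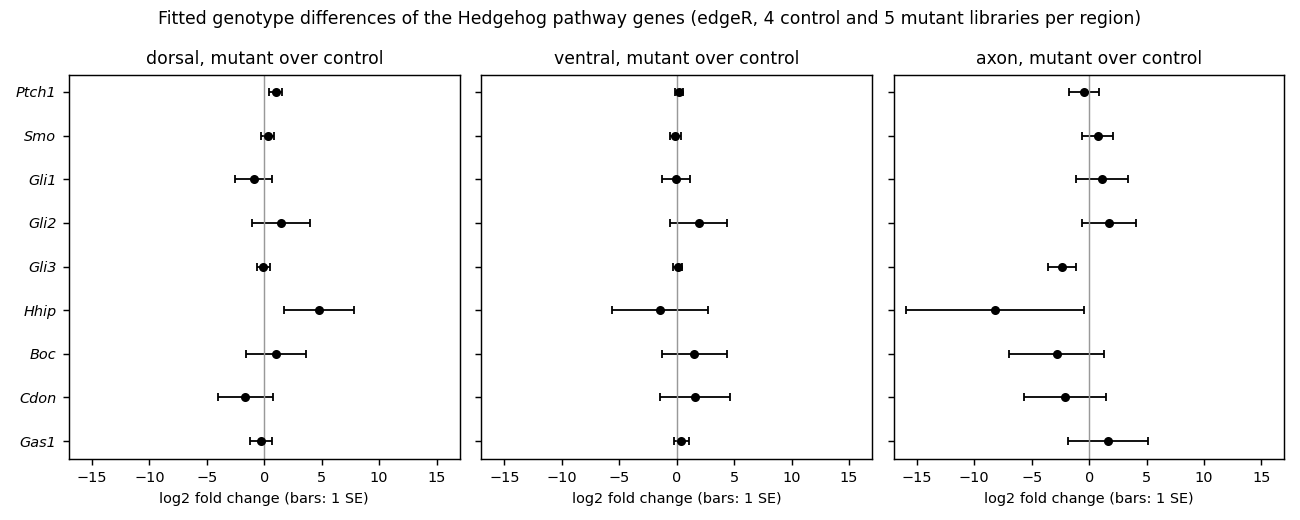
Fitted log2 fold change, mutant over control (horizontal axes), of the 9 genes in the dorsal, ventral and axon pieces, from edgeR with 4 control and 5 mutant libraries per region; bars are 1 SE. In the dorsal and ventral OS the SEs of Ptch1, Smo, Gli3 and Gas1 run from 0.347 to 0.956, smaller than those of the other genes there. Gli3 in the axon pieces stands at −2.36 ± 1.21.

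Between regions the same held. In controls, 0 of the 9 genes were called between dorsal and ventral (0% of all genes), dorsal and axon (0.0692%) or ventral and axon (0.0316%). Unadjusted p-values under 0.05 were found for 0, 1 (Cdon) and 0 of them, against 6.74%, 10.5% and 9.19% of all genes, and groups without overlap for 0, 1 (Cdon) and 0, against 2.71%, 4.41% and 3.8%. In mutants, 0 of the 9 were called between dorsal and ventral (0% of all genes), dorsal and axon (0.545%) or ventral and axon (0.443%). Unadjusted p-values under 0.05 were found for 1 (Gli3), 0 and 1 (Gli3), against 12.4%, 23.5% and 21.8% of all genes. Mutant groups did not overlap for 0, 0 and 2 genes (Gli3 and Ptch1), against 1.53%, 4.18% and 3.43%. For the difference of the genotype effect between regions, 0 of the 9 were called in each of the 3 tests (background 0.00612% for dorsal against ventral, 0.0245% for dorsal against axon and 0.00612% for ventral against axon), and 0, 1 and 1 (Gli3) had an unadjusted p under 0.05, against 7.39%, 11.7% and 10.4%. Over all 108 tests of a Hedgehog gene, edgeR gave 5 unadjusted p-values under 0.05 and a smallest adjusted p of 0.214. DESeq2 gave 8 unadjusted p-values under 0.05 and 2 calls in these tests, where it called 5.29% of all tests of a gene and 11.2% had an unadjusted p under 0.05. Limma voom gave 12 unadjusted p-values under 0.05 and 0 calls, where these shares were 0.798% and 9.8% over all genes.

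Regions were also ordered within embryos, where libraries of the same number in a genotype were taken as pieces of the same embryo. This count was added after the levels had been seen. Between dorsal and axon, 1 of the 9 genes (Gas1, higher dorsally) had the same direction in at least 8 of 9 embryos, where 8.4% of all genes did. Between ventral and axon, 3 of the 9 did (Ptch1, Gli3 and Gas1, all higher ventrally), where 8.81% of all genes did. Between dorsal and ventral, 1 of the 9 did (Gli3, higher ventrally), where 4.93% of all genes did. Smo, Gli1 and Gli2 had no such order, with at most 6 of 9 embryos in 1 direction for each pair of regions.

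The wider pathway was described through 58 further genes in 5 lists, of which 49 passed the count filter. Of the ligands, Shh was at 0 in 25 of 27 libraries and at 0.835 and 3.26 CPM in 2 dorsal mutants, and neither Ihh nor Dhh exceeded 0.914 CPM in any library. Over the 3 genotype comparisons 0 of the further genes were called, and unadjusted p-values under 0.05 were found for 2 of 48 tested dorsally, 1 of 49 ventrally and 2 of 47 in the axon pieces. Dorsally these were Hes1, a transcriptional repressor of proneural genes that Notch and Hedgehog signals induce, and Olig2, a ventral neural transcription factor. Hes1 was at 187 to 325 CPM in controls and 70.6 to 100.9 CPM in mutants, without overlap (log2 −1.52 ± 0.33, adjusted p = 0.380). Olig2 was at 0 in dorsal controls and at 0 to 23.7 CPM in mutants (adjusted p = 0.918). Ventrally it was Mgrn1, a ubiquitin ligase that lowers Smo at the cell surface, at 76.7 to 122 CPM in controls and 24.2 to 56.3 CPM in mutants (log2 −1.44 ± 0.53, adjusted p = 0.999). In the axon pieces they were Scube3, of a family that helps release ligand (edgeR adjusted p = 0.880), and Sfrp1, a secreted Wnt modulator (log2 1.36 ± 0.57, edgeR adjusted p = 0.880). Scube3 was at 0 in 5 of 5 mutants and at 32.9, 19.8, 20.8 and 0.0458 CPM in controls. The control mean (18.4 CPM) was at least 113-fold above the mutants, taken at a floor of 3 counts per library. This bound does not hold for the last control, which held 1 read and was itself below that floor.

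The only further gene called in any comparison was Ccnd2 (chr6:127125162-127152193, minus strand), a D-type cyclin of the G1 phase that Gli factors can induce. It was lower in dorsal than in axon pieces in controls (log2 −2.04 ± 0.30, adjusted p = 0.0238) and mutants (−2.50 ± 0.21, adjusted p = 1.45e-05), and lower in ventral than in axon pieces in controls (−2.04 ± 0.27, adjusted p = 0.0243) and mutants (−2.98 ± 0.32, adjusted p = 0.000523). Axon libraries had 1369 to 3560 CPM of Ccnd2 and the others 202 to 763 CPM, with no overlap. The call did not hold in controls when 6 of the 8 libraries were left out singly or with the embryo as a block. Of its exonic bases, 7.86% are shared with transcripts on the other strand. Lrp2, a large endocytic receptor that takes up Sonic hedgehog in the forebrain, was at 88.1 to 164 CPM in ventral mutants and at 0 in 4 of 5 axon mutants and at 1.24 CPM in the other (log2 8.62 ± 1.94, adjusted p = 0.0884). Lrp2 was named after its values were seen.

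**Figure D4:**
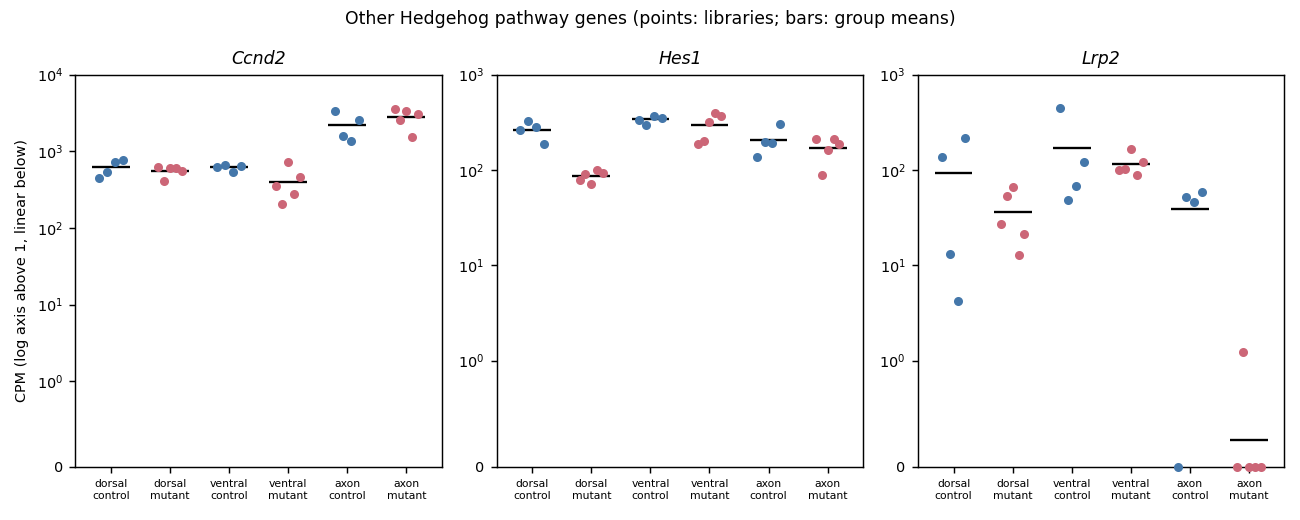
CPM of Ccnd2, Hes1 and Lrp2 (vertical axes, logarithmic above 1 and linear below) in the 6 groups, with a point per library (blue control, red mutant) and a bar at the group mean. Ccnd2 is at 1369 CPM or more in every axon library and at 763 CPM or less elsewhere, Hes1 is lowest in dorsal mutants (70.6 to 100.9 CPM), and Lrp2 is at or near 0 in the axon mutants.

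Among themselves the 9 genes followed each other weakly over the 27 libraries. Of 36 pairs, 1 had a Pearson r of log2(CPM + 1) over 0.5, Ptch1 with Gas1 (r = 0.61), and the lowest was Gli1 with Hhip (r = −0.40). These are descriptions over libraries that share embryos and depth. Among 10031 well counted genes the most alike to each were Notch2 for Ptch1 (r = 0.80), Gtf2b for Smo (0.76), Evi5 for Gli2 (0.70), 1500011B03Rik for Gli3 (0.83), Trafd1 for Hhip (0.73), Gm9892 for Boc (0.77), Usp53 for Cdon (0.69) and Kmt2c for Gas1 (0.87). The 3 most alike to Gli1 were Ptgds (0.73), Golim4 (0.70) and Ptpn23 (0.70).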

How the data were processed

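RNA of laser-captured E14 optic stalk was amplified and sequenced by Geo-seq in 27 libraries. The authors deposited raw read counts per gene, made by aligning reads to mm10 with STAR and counting with HTSeq (the submitters' processing notes also name Salmon). Versions, annotation release and strand setting are not given in the sources used here. There were no molecular identifiers, PCR copies are therefore counted as separate reads, and floors (3 counts) cover counting error only. The Hedgehog genes and all lists were chosen with earlier results of these data known.

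Groups, batches and replicate numbers came from the labels. Of 55487 identifiers, 55227 matched a symbol in GENCODE M21, and the other 260 hold 0.00287% of counts. CPM was the count over the library total. The 16330 genes that passed the filter (over 10 counts in 3 or more libraries) were tested in R 4.3.3 by edgeR 4.0.16 (quasi-likelihood F-test, two-sided, TMM, robust, legacy). Genotypes were compared per region with batch as a term, regions per genotype with no covariate, and the genotype effect between regions in all 27 libraries with batch. P-values were adjusted by Benjamini-Hochberg over all genes tested. Standard errors were derived from the F statistic. Exact permutation tests used log2(CPM + 1). Promoters came from RefSeq (GRCm38.p6). DESeq2 1.42.0 and limma voom 3.58.1 were alternatives. These tools and edgeR were run on simulated counts with known changes for the dorsal genotype comparison only. The other steps were not tested on simulated data. P-values of the genotype comparisons per region measure the spread between embryos. Those between regions, and of the genotype effect between regions, treat pieces of the same embryo as separate samples. The embryo entered such fits only as a block in an alternative. No pair of libraries was identical.

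Libraries with the same number within a genotype were taken as pieces of the same embryo, from the study's sampling of 3 pieces per embryo. Their deviations from the group means correlated more than those of other numbers in 24 of 27 pairs, with r of -0.0195 to 0.115. Centring on the group mean pushes the other numbers the opposite way, and same-numbered libraries also share a batch. The count therefore cannot show that the pieces come from the same embryo. Control and mutant numbers are different embryos.

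Named in the text are the 9 genes in every group, with fitted changes where the unadjusted p was under 0.05, groups did not overlap or the gene was called. Fits printed outside this rule (Gas1, Gli1, Gli2 and Hhip, Gli3 by genotype in the dorsal and ventral OS), the within-embryo counts and the motif search were added after levels had been seen. Other pathway genes are named where called or, per genotype comparison, up to 3 per direction with an unadjusted p under 0.05, and for likeness the best match of each gene and the 3 best of Gli1. Some genes of the lists are not reported here.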

Additional observations from a re-analysis of the deposited data

Results flagged for a closer look

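In 10 of 54 groups of a Hedgehog gene, 1 library stood apart from the rest of its group by Dixon's test, all 10 on the high side. Chance would set apart about 1 group in 20 if values were normally distributed, but raw CPM with many zeros are not. Over all genes that passed the count filter, 30.2% of groups had such a library, against 18.5% of the Hedgehog gene groups. All 10 concern Gli2, Hhip, Boc and Cdon. Gli2 stood out at 61.9 CPM in a ventral control and at 46.6 CPM in an axon control. Hhip stood out at 57.7 CPM in a ventral control and at 160.8 CPM in an axon mutant whose 4 fellow libraries were at 0. Boc stood out at 74.0 CPM in a dorsal mutant, 43.5 CPM in a ventral control and 7.14 CPM in an axon mutant. Cdon stood out at 59.3 CPM in a ventral control, 62.4 CPM in a ventral mutant and 4.96 CPM in an axon mutant. The same ventral control, replicate 2, was the high library for Gli2, Hhip and Cdon. The means of these 10 groups rest largely on such single libraries. In the other groups of these genes no library was set apart.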

How the results depend on the processing

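The 12 counts of called Hedgehog genes were 0 under 199 of 201 alternatives. Over the leave-one-out fits alone the lowest was 0 and the highest 0. Both exceptions were DESeq2, which called 8.32% and 3.4% of all genes there, with 1 gene between axon mutant and axon control (Hhip, log2 -10.89, adjusted p = 0.0171, although 1 mutant had the highest level) and 1 between dorsal and axon control (Cdon, log2 6.76, adjusted p = 2.21e-05). With the replicate block (embryo, for regions) the count was 0 in each comparison. Control and mutant embryos are not paired, and the replicate block for genotype pairs numbers only. The log2 differences of Gli3, Cdon and Ptch1 printed with tests kept their direction under each alternative that could be fitted. For Gli3 between axon mutant and control they ran from -5.30 (replicate block) to -2.04, with adjusted p of 0.291 to 1. The permutation p of Cdon between dorsal and axon control was 0.05 within batches, the smallest those splits allow. Ccnd2 kept its direction under each alternative. Its control calls were lost with limma voom, the replicate block and 6 of 8 leave-one-out fits each, and for ventral against axon with RLE scaling. Its mutant calls were lost only with limma voom, whose SEs there were 70.6 and 47.0. Causes were not tested. At 4 against 5 libraries, with SEs of 0.347 to 7.76 on the log2 scale for genotype (the smallest for Ptch1 in the ventral OS), what could be called depended on the gene and the tool, and a missed threshold does not show equal levels.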
